A study of Homo sapiens with 6 samples.

Results

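The genes of the hypoxia-inducible factor (HIF) system, which sense and relay oxygen level, were followed in 786-O cells, an established human clear cell renal carcinoma line, by messenger RNA sequencing of 6 libraries. These 10 members of the system, out of 58735 genes in the deposited count table, were taken by gene name: the alpha subunits EPAS1, HIF1A and HIF3A, the partners ARNT and ARNT2, the ubiquitin ligase component VHL, the prolyl hydroxylases EGLN1, EGLN2 and EGLN3, and the asparaginyl hydroxylase HIF1AN. By the sample labels, the cells of 3 libraries (sh-Control) carried a control hairpin. Those of the other 3 (sh-CBX7) carried a hairpin that targets CBX7, a Polycomb gene. A short hairpin RNA is processed into a small RNA that silences its target. The deposited column names say siCBX7 instead, so the kind of silencing RNA is not settled here. No drug, oxygen condition or time point is given in the labels, which also do not name the hairpin sequence, another hairpin or separate cultures. The p-values therefore measure the spread between these libraries, which may be technical.

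Hypoxia-inducible factors are pairs of an oxygen-labile alpha subunit and a stable ARNT partner that bind DNA together. When oxygen is present, EGLN enzymes hydroxylate prolines of the alpha subunit, VHL binds the hydroxylated protein, and the ligase built on VHL marks it for destruction. HIF1AN hydroxylates an asparagine and so keeps the alpha subunit from its coactivators EP300 and CREBBP. Loss of VHL function is the founding lesion of most clear cell renal carcinomas. The 786-O line is a standard model of it: as background, it lacks functional VHL protein, accumulates the EPAS1 protein (HIF-2 alpha) and is known to make no functional HIF1A protein. Counts of RNA show neither protein level nor protein function.

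The alpha subunit and EGLN genes are themselves studied for feedback by HIF, whose core DNA sequence is ACGTG or GCGTG. RefSeq starts on GRCh38.p14 were at hand for 8 of the 10 members (12 starts), VHL and ARNT2 being the others. In the 250 bases before a start, on either strand, one of these 5-base sequences lay in 43.2% of 35116 starts of all genes, and ACGTG alone in 18.5%. Windows around the matches of 4 members are shown because they carry, in capitals, the sequence by which the HIF pair recognises DNA. They run 5′ to 3′ on the strand of the gene.

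EPAS1, chr2:46297278-46297306, plus strand: gggcctgccggcGCGTGcccgcccacaca
HIF1A, chr14:61695297-61695325, plus strand: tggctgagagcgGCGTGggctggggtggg
EGLN1, chr1:231422288-231422312, minus strand: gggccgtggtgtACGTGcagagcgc
EGLN2, chr19:40799130-40799158, plus strand: gcggggcgcggtCACGTGcccaccgggcg

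The match began 117 bases before the start in EPAS1, 204 in HIF1A and 13 in EGLN1. The EGLN2 match reads as ACGTG on both strands, the 2 readings overlapping in the palindrome CACGTG that began 49 bases before the start. In GENCODE 29 the EPAS1 and EGLN2 windows lay inside their genes but in no exon, the HIF1A window lay in the antisense gene HIF1A-AS1 outside its exons, and the EGLN1 window lay in an annotated untranslated exon of EGLN1. HIF3A held GCGTG 3 times before 1 of its starts. No ACGTG or GCGTG was in the windows searched for ARNT, EGLN3 and HIF1AN. Such matches are common and describe only these letters.

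Knockdown of CBX7 was read first. Its counts were 203, 240 and 183 in sh-Control and 143, 111 and 142 in sh-CBX7, so that each sh-CBX7 library lay below each sh-Control library (log2 fold change -0.71, SE 0.13, edgeR adjusted p = 5.41e-05). Library totals ran from 16384151 to 18868874 counts. Libraries of a group differed by more than sampling noise (chi-square per gene 2.85 to 9.23), most between sh-Control replicates 1 and 2. The renal origin of the cells was visible in PAX8 (224 to 294 CPM, the TMM-normalised count scaled to library size), KRT8 (784 to 1220 CPM) and VIM (1660 to 1850 CPM), whereas LRP2, UMOD and SLC34A1, markers of mature nephron segments, had at most 6 counts in a library. Of 11 immune and red cell markers 5 had 0 counts in all libraries: PTPRC, CD3E, MS4A1 and the haemoglobin genes HBA1 and HBB. CD14, the only one tested, was at 1.62 and 1.36 CPM in the 2 groups and was not called. The others had at most 7 counts in a library, reached by ITGAM. Of 7 endothelial markers CDH5 and EMCN had 0 counts, while the 2 tested, PECAM1 and KDR, summed to 1.74 to 2.64 CPM in sh-Control and 3.22 to 4.19 CPM in sh-CBX7. PECAM1 was called higher (1.47 to 2.38 CPM, edgeR adjusted p = 0.0349), a call lost with DESeq2 (0.0676) and without sh-Control replicate 1 (0.128) or 2 (0.0787) or sh-CBX7 replicate 1 (0.0986) or 3 (0.0902). KDR had a log2 fold change of 0.87 and was not called (edgeR adjusted p = 0.0655), but was without sh-CBX7 replicate 3 (0.0242). The summed level of the 6 tested fibroblast and pericyte markers was 18.39 to 18.91 CPM in sh-Control and 266.5 to 294.8 CPM in sh-CBX7, most of the latter ACTA2. Of these 6, ACTA2, RGS5 and LUM were called higher and COL1A1 and PDGFRA lower, and COL3A1 and DCN had at most 3 counts. The part of these markers in the results on the members was not tested. In bulk RNA, fewer cells with a transcript and less transcript per cell cannot be told apart.

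Of the 10 members, 9 passed the filter on low counts and were tested with edgeR's quasi-likelihood test, with p-values adjusted over all 14573 tested genes and called below 0.05. The test called 6 of these 9, and it called 53.3% of all tested genes. VHL and ARNT rose in sh-CBX7 (2 of 9, against 26.1% of all genes higher), and HIF1A, ARNT2, EGLN3 and HIF1AN fell (4 of 9, against 27.2% lower). The groups did not overlap for 7 members, where this held for 59% of all tested genes, 29.1% with sh-CBX7 higher and 29.9% with it lower. The median size of the log2 fold change was 0.37 for the tested members and 0.33 for all tested genes. As a set the members thus changed about as often and by about as much as genes at large, and the description below is of each gene by its role.

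**Figure D1:**
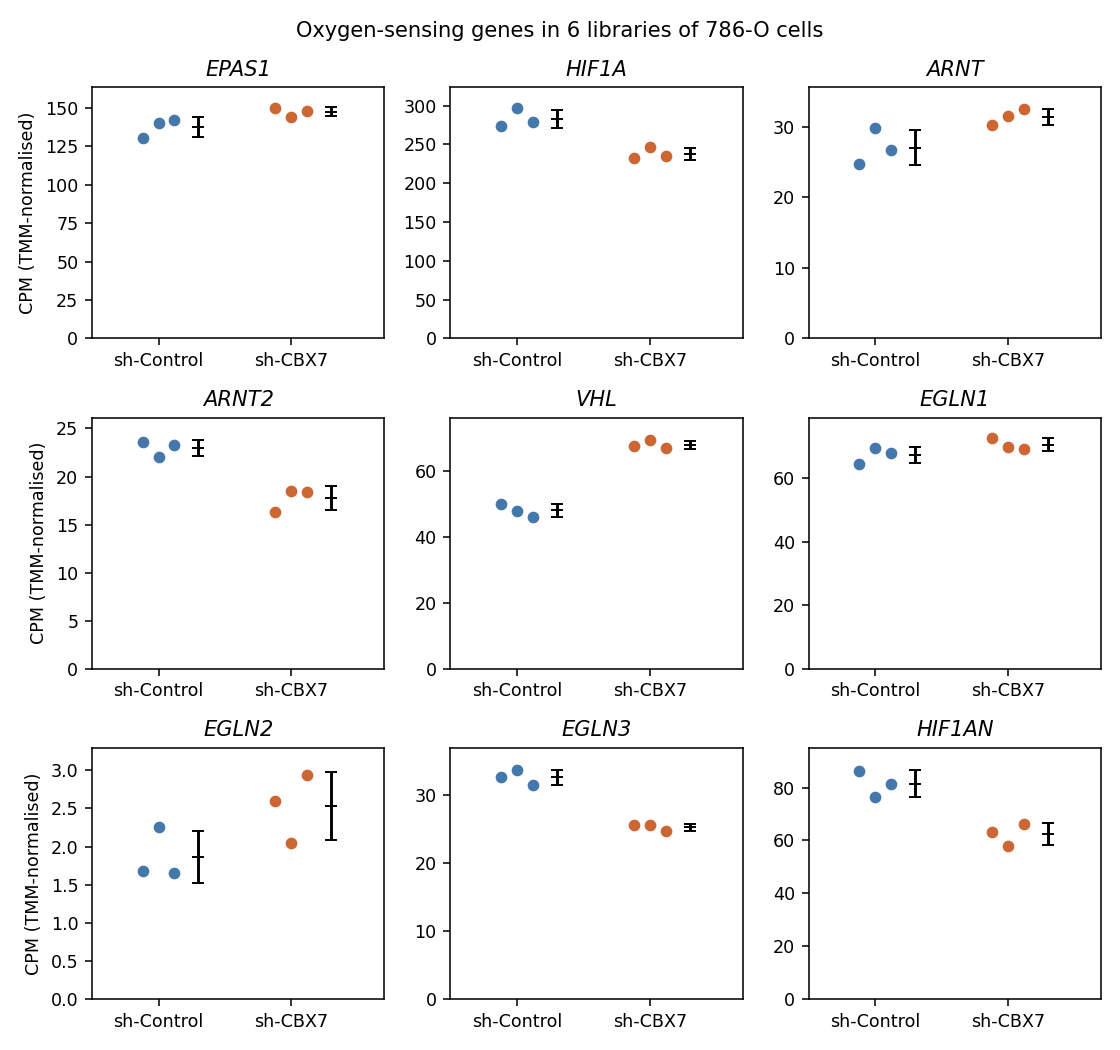
Level of the 9 tested members in each library (points, replicates 1 to 3 from left to right, in CPM after TMM normalisation, axes from 0), with the mean and SD of 3 libraries beside them. VHL sits at 46.08 to 50.07 CPM in sh-Control and 66.87 to 69.33 CPM in sh-CBX7, whereas the points of EGLN1 and of EGLN2 overlap between groups.

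The oxygen-labile alpha subunits differed in what they did. EPAS1 (ENSG00000116016; GRCh38 chromosome 2, 46293667 to 46386703, plus strand), the HIF-2 alpha gene on which this line depends, had 2166, 2556 and 2315 counts in sh-Control and 2826, 2389 and 2626 in sh-CBX7. Normalised, these were 130.2, 140.5 and 142.1 CPM against 150.0, 144.3 and 148.2 CPM. The sh-CBX7 libraries all lay above the sh-Control libraries, but sh-Control replicate 3 and sh-CBX7 replicate 2 were close, and sh-Control replicate 1 was the lowest. The log2 fold change was 0.10 (95% interval -0.02 to 0.22, edgeR adjusted p = 0.157), so the difference did not pass the test, and the interval allows at most a small rise. With upper quartile normalisation, which moves all genes up by 0.049 at the median, EPAS1 had 0.15 and an edgeR adjusted p = 0.0347.

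HIF1A (ENSG00000100644; chromosome 14, 61695513 to 61748259, plus strand), the HIF-1 alpha gene, fell. Its counts of 4563, 5390 and 4539 in sh-Control and 4373, 4076 and 4156 in sh-CBX7 gave 274.3, 296.4 and 278.5 CPM against 232.1, 246.1 and 234.5 CPM. The highest sh-CBX7 library was below the lowest sh-Control library. The change was 1.19-fold (log2 fold change -0.25, SE 0.06, edgeR adjusted p = 0.000519). Of its exon bases 148 are shared with AL137129.1 on the same strand and 117 with the antisense gene HIF1A-AS1. AL137129.1 was at 0 counts in each library and HIF1A-AS1 had at most 7.

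HIF3A (ENSG00000124440; chromosome 19, 46297046 to 46343433, plus strand), the alpha subunit with forms that restrain the others, had 0 counts in all 6 libraries and was not tested. A count of 0 allows a level of up to 0.159 to 0.184 CPM (3 counts in a library, counting error only). No other gene shares its strand and exon bases.

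The stable partners moved in opposite directions. ARNT (ENSG00000143437; chromosome 1, 150809705 to 150876768, minus strand), the common partner also known as HIF-1 beta, had 24.76, 29.75 and 26.63 CPM in sh-Control and 30.19, 31.58 and 32.45 CPM in sh-CBX7, from 412 to 575 counts a library. The groups were close, sh-Control replicate 2 lying just under sh-CBX7 replicate 1. The rise was 1.16-fold (log2 fold change 0.21, SE 0.09, edgeR adjusted p = 0.0464), the only call among the members near the threshold. It was lost without sh-Control replicate 1 (adjusted p = 0.146), sh-Control replicate 3 (0.128), or sh-CBX7 replicate 1 (0.0577), 2 (0.113) or 3 (0.143), with DESeq2 (0.056) and with no filter on low counts (0.0843).

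ARNT2 (ENSG00000172379; chromosome 15, 80404350 to 80597937, plus strand), a homologue of ARNT best known from neurons and kidney, fell. It had 393, 400 and 379 counts in sh-Control against 308, 307 and 326 in sh-CBX7, or 23.62, 21.99 and 23.26 CPM against 16.34, 18.54 and 18.40 CPM. All sh-CBX7 libraries were lower (1.29-fold, log2 fold change -0.37, SE 0.10, edgeR adjusted p = 0.00292). The antisense gene AC016705.1, which lies within ARNT2 but shares none of its exon bases, rose from 0.81 ± 0.13 to 1.60 ± 0.40 CPM (mean and SD of 3 libraries each; log2 difference 0.98, edgeR adjusted p = 0.0209), with 12 to 34 counts a library. That call was lost without sh-Control replicate 2 (adjusted p = 0.0873) or sh-CBX7 replicate 2 (0.125). Reads inside introns of the sense gene could not be assigned to a strand here.

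VHL changed most clearly of the members. The gene (ENSG00000134086; chromosome 3, 10141008 to 10152220, plus strand) had 833, 872 and 751 counts in sh-Control and 1275, 1148 and 1185 in sh-CBX7. Normalised levels were 50.07, 47.95 and 46.08 CPM against 67.66, 69.33 and 66.87 CPM, a gap several times the spread within either group. The rise was 1.41-fold (log2 fold change 0.50, SE 0.07, edgeR adjusted p = 1.2e-06). No exon base of VHL is shared with another gene. The transcript was thus present in all libraries of this VHL-deficient line, and the table does not show which sequence it carries.

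**Figure D2:**
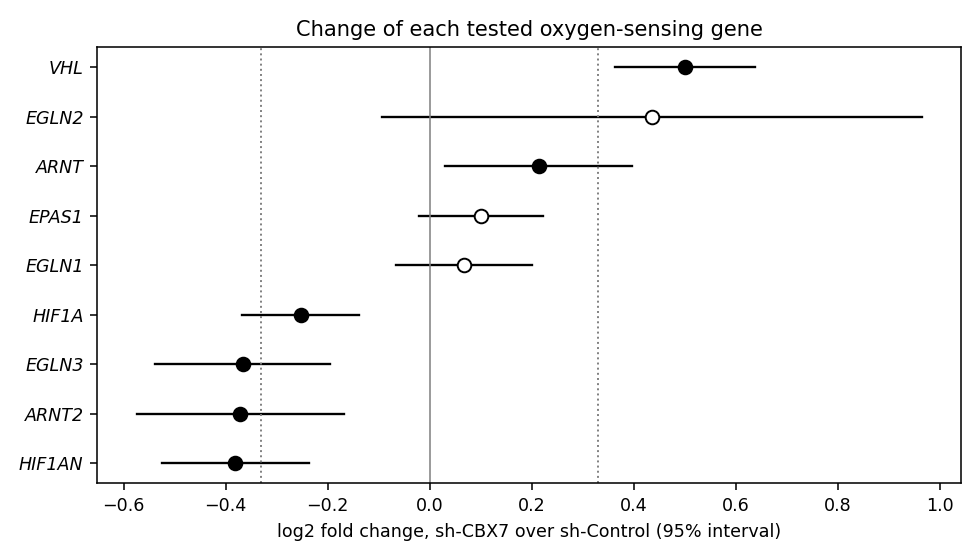
Log2 fold change (sh-CBX7 over sh-Control) of each tested member with its 95% interval; filled points were called by edgeR and open points were not, and dotted lines mark the median size over all tested genes, 0.33. VHL lies highest among the called genes at 0.50 and HIF1AN lowest at -0.38, and the interval of EGLN2 is the widest.

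The 3 prolyl hydroxylases did not share a direction. EGLN1 (ENSG00000135766; chromosome 1, 231363751 to 231425044, minus strand), known as PHD2 and the main hydroxylase of HIF alpha in most cells, had 64.67, 69.50 and 67.99 CPM in sh-Control and 72.86, 69.87 and 69.13 CPM in sh-CBX7. These ranges overlapped. The log2 fold change was 0.07 (95% interval -0.07 to 0.20, edgeR adjusted p = 0.39), which bounds a change in either direction at a small size.

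EGLN3 (ENSG00000129521; chromosome 14, 33924231 to 34462774, minus strand), known as PHD3 and as one of the genes that HIF induces, fell. It had 543, 613 and 513 counts in sh-Control and 483, 423 and 438 in sh-CBX7, or 32.64, 33.71 and 31.48 CPM against 25.63, 25.54 and 24.72 CPM. The groups were well apart and the sh-CBX7 libraries lay close together. The fall was 1.29-fold (log2 fold change -0.37, SE 0.08, edgeR adjusted p = 0.000726). The annotated gene spans SPTSSA, a serine palmitoyltransferase subunit on the same strand, without sharing exon bases, and SPTSSA changed the other way (56.05 ± 1.96 to 67.37 ± 2.18 CPM, mean and SD of 3 libraries each; log2 difference 0.27, edgeR adjusted p = 0.00164).

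EGLN2 (ENSG00000269858; chromosome 19, 40798996 to 40808433, plus strand), known as PHD1, had only 28, 41 and 27 counts in sh-Control and 49, 34 and 52 in sh-CBX7. Levels of 1.68, 2.25 and 1.66 CPM and of 2.60, 2.05 and 2.94 CPM overlapped (log2 fold change 0.44, 95% interval -0.09 to 0.96, edgeR adjusted p = 0.157). A change of the size seen for VHL lies inside that interval and was not detectable at these counts. In GENCODE 29 the read-through gene RAB4B-EGLN2 covers 2012 of the 6577 exon bases of EGLN2 on the same strand, AC008537.1 covers 119, and together they cover 93.4% of its 1307 coding bases. Both of those genes stood at 0 counts in all 6 libraries. How reads that fit more than 1 gene were handled is not given in the sources used here, and the part of these shared bases in the low count of EGLN2 was not tested. Among the other members the largest share of coding bases was 9.7%, in ARNT2.

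HIF1AN (ENSG00000166135; chromosome 10, 100529072 to 100559998, plus strand), known as factor inhibiting HIF, fell. Its counts of 1438, 1389 and 1328 in sh-Control and 1190, 961 and 1173 in sh-CBX7 gave 86.43, 76.37 and 81.49 CPM against 63.15, 58.03 and 66.20 CPM. All 3 sh-CBX7 libraries were below all sh-Control libraries (1.30-fold, log2 fold change -0.38, SE 0.07, edgeR adjusted p = 7.28e-05). Its exons share 325 bases with NDUFB8 on the other strand. NDUFB8, a complex I subunit, had a log2 fold change of -0.18 that was not called (edgeR adjusted p = 0.433) and that turned to 0.09 without sh-CBX7 replicate 1 (adjusted p = 0.656).

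Levels can be set against each other only per gene length. In CPM per kilobase of the deposited length, sh-Control cells had HIF1A first at 54.95 ± 2.28 (SD, n = 3), then EPAS1 at 18.84 ± 0.88, VHL at 11.40 ± 0.47, EGLN1 at 9.28 ± 0.34 and HIF1AN at 5.84 ± 0.36. EGLN3 (4.28 to 4.58) and ARNT (3.80 to 4.57) were neighbours whose ranges overlapped, and ARNT2 (2.97 ± 0.11), EGLN2 (0.28 ± 0.05) and HIF3A (0) followed. Each remaining pair of neighbours had separate ranges. HIF1A RNA was thus more abundant per length than EPAS1 RNA, and EGLN1 had the highest counted level per length of the hydroxylases among the members. The place of EGLN2 is uncertain. Of its coding bases 93.4% are shared with other genes, and how reads on such bases were handled is not given.

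In sh-CBX7 cells HIF1A (46.12 ± 1.46, SD, n = 3), EPAS1 (20.20 ± 0.40), VHL (16.13 ± 0.30) and EGLN1 (9.72 ± 0.27) kept the first 4 places per kilobase. ARNT (4.82 ± 0.17) moved ahead of EGLN3 and overlapped HIF1AN (4.48 ± 0.30), and EGLN3 (3.44 ± 0.07) and ARNT2 (2.29 ± 0.16) came after them. These orders rest on the annotated exon length, not on the transcripts used.

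Ratios within a library need no scaling between libraries. HIF1A over EPAS1, per length, was 2.99, 2.99 and 2.78 in sh-Control and 2.19, 2.42 and 2.24 in sh-CBX7, so that EPAS1 made up 25.1% to 26.5% of alpha subunit RNA in sh-Control and 29.3% to 31.3% in sh-CBX7. The ranges were apart, although the change of EPAS1 itself was not called. ARNT over ARNT2 was 1.25, 1.61 and 1.36 in sh-Control and 2.20, 2.02 and 2.10 in sh-CBX7. EGLN1 over EGLN3 was 2.01 to 2.19 in sh-Control and 2.77 to 2.88 in sh-CBX7. VHL over EPAS1 was 0.56 to 0.67 and 0.78 to 0.83. These ratios are descriptions of genes chosen with their values known and were given no test.

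**Figure D3:**
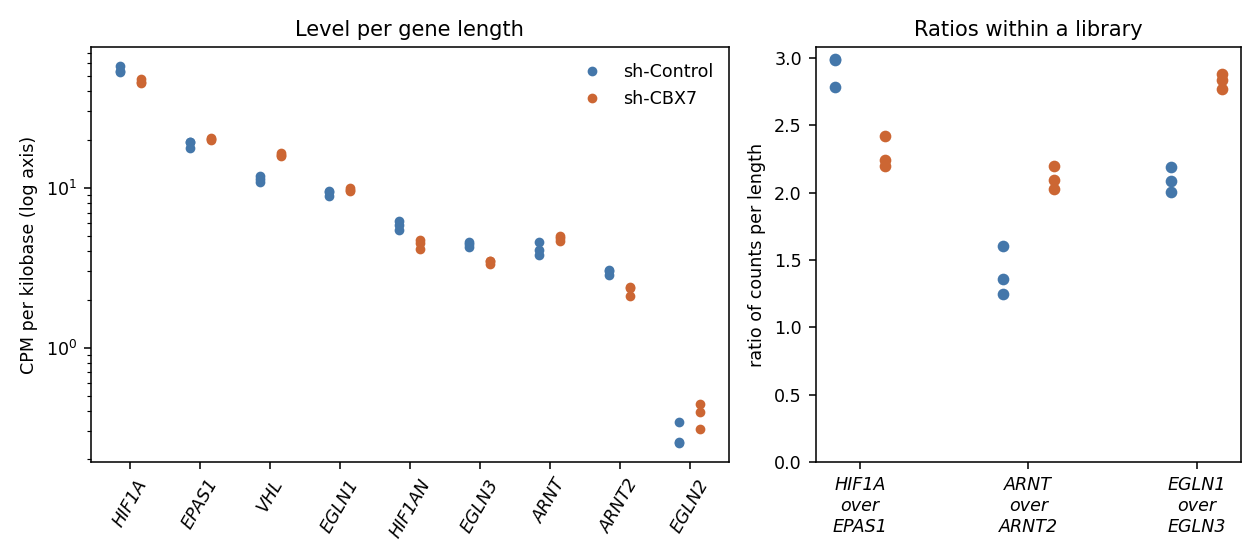
Left, CPM per kilobase of gene length (log axis) of the 9 detected members in each library, in the order of their level in sh-Control; right, ratios of counts per length within each library, on an axis from 0. HIF1A stands highest in both groups, and the points of HIF1A over EPAS1 lie at 2.78 to 2.99 in sh-Control and at 2.19 to 2.42 in sh-CBX7.

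Genes whose levels ran most like EPAS1 and VHL were sought among 9084 protein-coding genes averaging 10 CPM or more, by the root mean square difference of log2 CPM over the 6 libraries after centring. The nearest to EPAS1 were SEL1L3 (0.0102), RNF216 (0.021) and ZFP36L1 (0.0221), and the nearest to VHL were ARMC9 (0.0143), ITFG1 (0.0227) and TRAFD1 (0.0293). The measure rests on 6 libraries in 2 groups. Beside the rise of VHL, ARMC9 went from 34.97 to 49.01 CPM and ITFG1 from 56.98 to 80.74 CPM. Rises of this size follow from how these genes were picked.

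The partners of VHL in its ligase moved in both directions. Of 8 tested genes for its scaffold, adaptors and neddylation, 2 rose, 3 fell and 3 were not called (median log2 fold change -0.12, all tested genes -0.006). Among all tested genes, 26.1% were called higher and 27.2% lower. RBX1, the RING subunit, fell from 108.3 ± 4.26 to 75.15 ± 3.49 CPM (mean and SD of 3 libraries each; log2 difference -0.53, edgeR adjusted p = 2.75e-07). The scaffold CUL2 had -0.22 (edgeR adjusted p = 0.0166) and the neddylation enzyme UBE2M -0.23 (0.0042). The call of CUL2 was lost with upper quartile normalisation (adjusted p = 0.0591) and without sh-Control replicate 2 (0.0708), sh-Control replicate 3 (0.0683) or sh-CBX7 replicate 2 (0.0938). ELOB and ELOC, the elongin adaptors, had 0.07 and -0.12 and were not called.

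Of 16 HIF cofactors, 8 were called lower and 3 higher (median -0.16), where 27.2% of all tested genes were called lower and 26.1% higher. With upper quartile normalisation 5 were lower and 3 higher. The acetyltransferases CREBBP and EP300, which bind the alpha subunit where HIF1AN can block it and which lie outside the rule for named genes, had log2 fold changes of -0.60 and -0.46 (edgeR adjusted p = 4.71e-05 and 0.000717). TRRAP had -0.69 and HDAC7 -0.48, while CITED4, a small protein that competes for these acetyltransferases, rose from 13.72 ± 2.12 to 46.06 ± 4.23 CPM (mean and SD of 3 libraries each; log2 difference 1.75). Among 20 regulators of HIF stability other than the members, 4 rose and 6 fell (median -0.02), whereas with upper quartile normalisation 6 rose and 5 fell (median 0.03). SART1, a splicing protein also known as hypoxia-associated factor, fell from 81.23 ± 6.55 to 23.86 ± 1.23 CPM (log2 fold change -1.77, edgeR adjusted p = 1.7e-14), and the chaperones HSP90AA1 and HSP90AB1 had -1.06 and -0.62. The 4 that rose, outside the rule for named genes, were SIAH2 (0.83), ING4 (0.82), FKBP8 (0.34) and OS9 (0.29).

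Hydroxylases of this family need 2-oxoglutarate and are inhibited by succinate and fumarate, so enzymes that set these metabolites were listed. Of 19 tested, 10 fell and 1 rose (median log2 fold change -0.37), where 27.2% of all tested genes were called lower and 26.1% higher. IDH2, the mitochondrial isocitrate dehydrogenase that makes 2-oxoglutarate, fell from 216.6 ± 7.0 to 40.75 ± 1.22 CPM (mean and SD of 3 libraries each; log2 difference -2.41, SE 0.06, edgeR adjusted p = 1.89e-18). GOT2, the mitochondrial aspartate aminotransferase, had -1.53 and SDHD, a subunit that anchors succinate dehydrogenase, -1.89. Fumarate hydratase, FH, outside the rule for named genes, had -0.47. Also outside the rule, SDHC was the 1 that rose (0.26). The other 8 were not called, among them IDH1 (0.04), GLUD1 (-0.03) and SDHB (0.02). Metabolites were not measured.

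Targets of HIF were split by the subunit usually credited with them. Of 18 tested HIF-2 targets other than EGLN3, 11 rose and 3 fell (median log2 fold change 0.38). Of all tested genes, 26.1% were called higher and 27.2% lower. The list was chosen with earlier results of these data known. ANGPTL4, a lipase inhibitor, rose from 52.67 ± 5.53 to 253.8 ± 14.6 CPM (mean and SD of 3 libraries each; log2 difference 2.27), and the vasodilator peptide ADM had 1.37. The 3 that fell, named after their values were seen, were the glucose transporter SLC2A1 (-0.76), the amino acid transporter SLC7A5 (-0.62) and cyclin CCND1 (-0.50). VEGFA, also outside the rule, had 0.09 and was not called (edgeR adjusted p = 0.143). So a rise of most of this list stood beside a fall of EGLN3, SLC2A1 and CCND1 and an EPAS1 difference that was not called. Many of these genes also answer to other signals, which were not separated here.

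Of 23 tested HIF-1 targets, 8 rose and 7 fell (median -0.02, and 0.03 with upper quartile normalisation), beside 26.1% and 27.2% of all tested genes. DDIT4, an inhibitor of mTOR, had a log2 fold change of 0.92 and the glycolytic enzyme PFKL 0.63, whereas phosphoglycerate kinase PGK1 had -0.41. CA9, a carbonic anhydrase that is a classical HIF-1 target and lies outside the rule, stood at 1.14 CPM in sh-Control and 1.05 CPM in sh-CBX7 (edgeR adjusted p = 0.805).

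**Figure D4:**
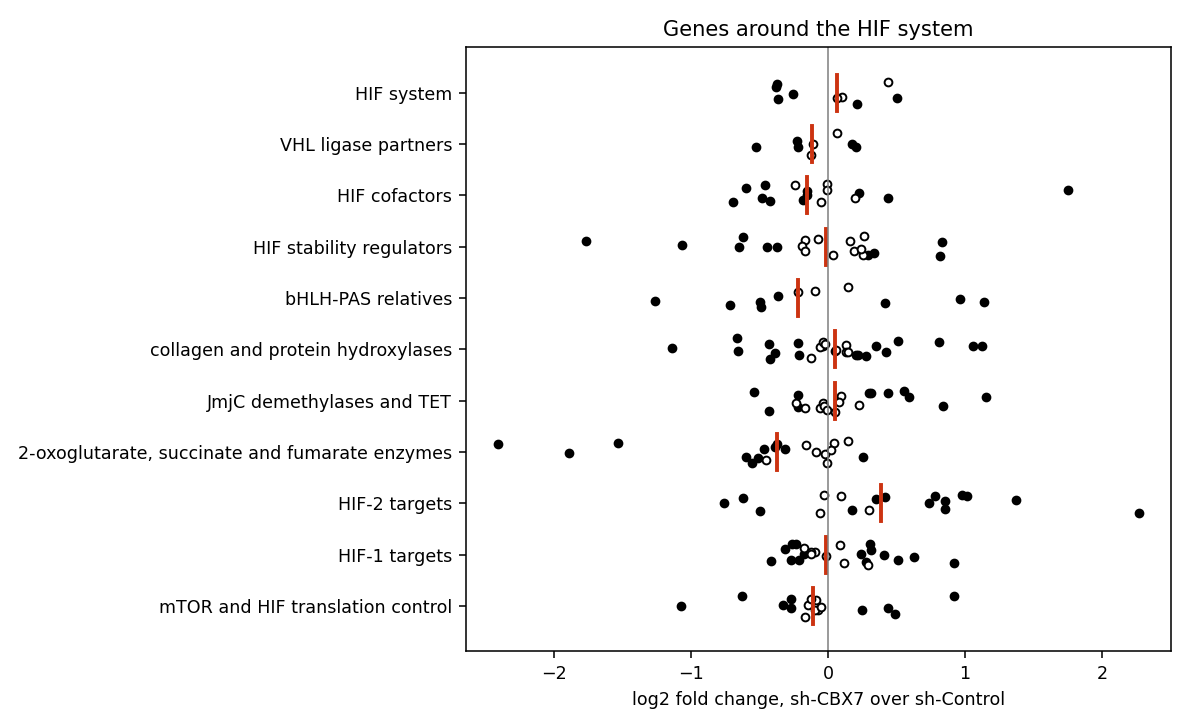
Log2 fold change (sh-CBX7 over sh-Control) of each tested gene in 11 lists around the HIF system; filled points were called by edgeR, open points were not, and the red bar is the list's median. The points of the metabolite enzymes reach from -2.41 (IDH2) to 0.26, and those of the HIF-2 targets reach 2.27 (ANGPTL4).

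The changes of the members were also read from 14 other fits. Across them, VHL stayed between 0.47 and 0.55 on the log2 scale and HIF1A between -0.28 and -0.20, with the call kept in each, as it was for EGLN3 (-0.39 to -0.32), ARNT2 (-0.40 to -0.31) and HIF1AN (-0.43 to -0.33). EGLN1 (0.04 to 0.12) and EGLN2 (0.32 to 0.60) were called in none. EPAS1 (0.06 to 0.15) was called in the upper quartile fit, and ARNT (0.15 to 0.29) kept its call in some fits and lost it in others, as given above.

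**Figure D5:**
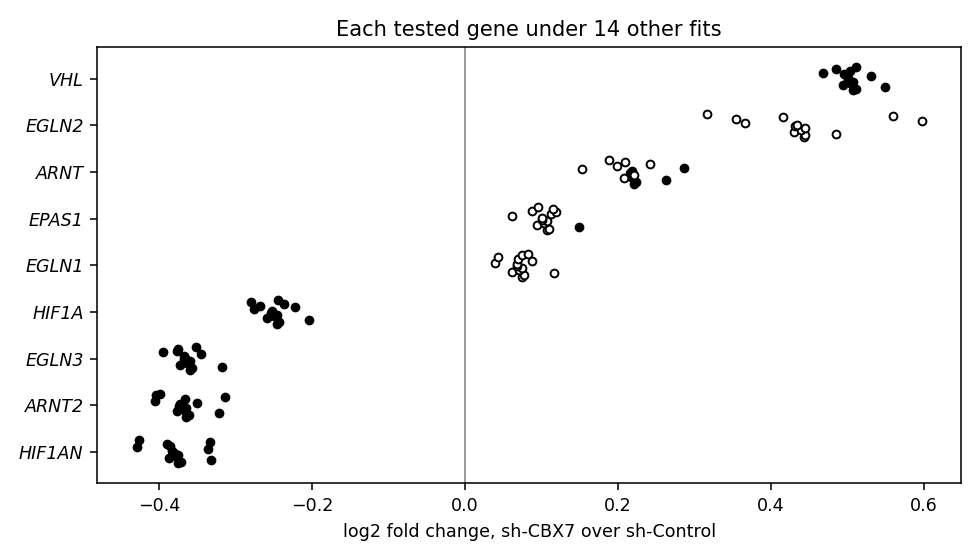
Log2 fold change (sh-CBX7 over sh-Control) of each tested member in 14 other fits, which change the normalisation, the filter, the test or the block or leave out 1 library; filled points had an adjusted p below 0.05. VHL stays at 0.47 to 0.55, and ARNT and EPAS1 show both filled and open points.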

How the data were processed

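The authors deposited 1 table of read counts per gene, as whole numbers without normalisation, with a gene length in bases. Per the submitters' processing notes, the tools were Trimmomatic, FastQC, HISAT2 2.0.5 and featureCounts 1.5.0-p3 and the build hg19, but coordinates of all 58735 genes equal those of GENCODE 29 (GRCh38), used here. CPM are counts scaled to TMM-normalised library size. Column names (siCBX7, control) were matched to labels by target and number, although si and sh name different kinds of silencing RNA. The strand setting is not given in the sources used here.

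Genes were filtered with filterByExpr, TMM-normalised and tested with edgeR 4.0.16 (R 4.3.3; glmQLFit, glmQLFTest, unpaired, Benjamini-Hochberg over 14573 genes, called below 0.05). The SE is the log2 fold change divided by the root of F. On simulated data edgeR called 72% of 100 genes changed by 0.5, 100% of 100 changed by 1 and 0.0989% of 14160 unchanged genes (log2 scale). The simulation gave every gene the same dispersion and changed far fewer genes than were called here. It drew the changed genes above a minimum level that EGLN2 did not reach. These rates therefore need not hold for the real libraries. Alternatives were DESeq2 1.42.0, limma 3.58.1 (voom), other normalisations, filters and thresholds, a replicate block and leaving out each library. The length alternative was added after seeing the data.

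Members and lists were chosen with earlier results of these data known. Named genes were the members, CBX7, RNF26 (of the series title), up to 3 genes by smallest p of each list, genes overlapping members and those most like EPAS1 and VHL. RNF26 had a log2 fold change of -0.88. Shared exon bases were counted from GENCODE 29, promoters from RefSeq. Low counts limit precision: the SE was 0.26 for EGLN2 and 0.06 for HIF1A. Among genes the rule names, 1 is not reported here.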

Additional observations from a re-analysis of the deposited data

How the results depend on the processing

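The count of members called higher was 1 in place of 2 without a filter on low counts, with DESeq2 and at an adjusted p below 0.01, and 1 to 2 when each library was left out, ARNT being the gene that lost its call. It was 3 with upper quartile normalisation, through EPAS1. The ratio of HIF1A to EPAS1 on exon bases that no other gene covers, an alternative chosen after seeing the data, came to 3.08 for sh-Control and 2.41 for sh-CBX7. Of 58 named genes tested, 48 kept direction and call in every alternative and 1 reversed, NDUFB8, which was not called in any and whose log2 fold change ran from -0.363 (without sh-CBX7 replicate 3) to 0.0891 (without sh-CBX7 replicate 1) when each library was left out. Of the others, 4 lost a call (ARNT, CUL2, PECAM1 and AC016705.1) and 5 gained one (EPAS1, KDR, SEL1L3, RNF216 and ZFP36L1). The cause was not tested. Upper quartile normalisation moved the split of all calls from 3799 higher and 3967 lower to 4312 and 3521.

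Deviations of same-numbered libraries correlated at 0.0709, 0.0775 and 0.0375, and each correlated best with its own number. Pairs of unlike number ran from -0.0737 to 0.00224. The labels do not say what a number stands for, and whether same-numbered libraries share a batch was not tested. With the replicate block the members called stayed at 2 higher and 4 lower, and calls over all genes were 3972 higher and 4126 lower. Counts limit EGLN2, whose 231 reads over 6 libraries leave a wide interval, and HIF3A.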

Other observations

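The counts below stand beside 26.1% of all tested genes called higher and 27.2% called lower. Other enzymes that use oxygen and 2-oxoglutarate moved in both directions. Of 27 tested collagen and protein hydroxylases, 9 were higher and 8 lower in sh-CBX7 (median log2 fold change 0.05), and P4HA2, a collagen prolyl hydroxylase, had 1.06. Of 21 JmjC demethylases and TET enzymes, 7 were higher and 4 lower (median 0.05), KDM7A among the higher at 1.15. Of 11 tested relatives of the subunits in the bHLH-PAS family, 3 were higher and 5 lower (median -0.22), with ARNTL2, a clock gene, at 0.96 and PER1 at -1.26. Of 16 genes of mTOR and HIF translation control, 4 were higher and 5 lower (median -0.11), and ACO1, an iron-responsive RNA-binding protein, had -1.07.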
